A study of Mus musculus with 88 samples.

Results

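The 10 proteins described are markers of DNA replication and of dividing cells: the 6 subunits Mcm2 (UniProt P97310), Mcm3 (P25206), Mcm4 (P49717), Mcm5 (Q52KC3), Mcm6 (P97311) and Mcm7 (Q61881), with Pcna (P17918), Top2a (Q01320), Mki67 (E9PVX6) and Dnmt1 (P13864). They were chosen by name, as the protein groups of the tryptic experiment whose first listed gene was 1 of these, and each name matched 1 group among the 5899 groups kept. The cells were dendritic cells grown with GM-CSF from bone marrow of female C57BL/6J mice. They were grown in medium-labelled amino acids (Arg6, Lys4; form M), pooled, moved at 0 h into heavy amino acids (Arg10, Lys8; form H), and on day 9 given lipopolysaccharide (LPS, a bacterial wall component, from an E. coli K12 strain, 100 ng/ml) or no stimulus (mock). M therefore marks protein made before 0 h, and H protein made after it. Unlabelled cells (L) served as a common reference in each run. The 42 runs fall into 21 groups of 2 replicates, the 0 h start that both arms share and 10 later times from 0.5 to 24 h in mock and in LPS. The AspN and LysN digests of unlabelled cells, marked baseline with no hour given, add 2 samples each. The cells are a bulk culture, so fewer cells of a type and less protein per cell cannot be told apart.

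As background, Mcm2 to Mcm7 form the ring-shaped helicase that is loaded on origins before S phase and unwinds DNA during it. Pcna is the sliding clamp that holds polymerases on DNA, Top2a the topoisomerase that untangles sister chromosomes, Dnmt1 the enzyme that copies CpG methylation to the new strand, and Mki67 (Ki-67) a large protein that coats mitotic chromosomes and is degraded as cells leave the cycle. Growth of dendritic cells with GM-CSF begins with dividing precursors, and the cells stop dividing as they mature.

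Many genes of S phase carry E2F sites near their start, and many genes of mitosis carry the CHR element with CCAAT boxes. The 250 bases before the start of transcription were read from RefSeq windows of build GRCm38.p6, which held 12 windows for 9 of the 10 members, Mcm4 being the one with none. The letters searched on both strands were TTTCCCGC, TTTCGCGC, TTTGCCGC and TTTGGCGC for E2F, TTTGAA and TTCGAA for CHR, and CCAAT. E2F letters were found for 4 members (Mcm5, Mcm6, Mcm7 and Dnmt1) and in 1.86% of all 32851 windows, CHR letters for 5 members (Mcm2, Mcm7, Top2a, Mki67 and Dnmt1) and in 17.1%, and CCAAT for 9 members and in 33.9%. A match is a string of letters and not a shown site. The counts are per member and the percentages per window, so they are not like for like. Mcm7 and Dnmt1 had more than 1 window and so more chances of a match, and the E2F letters of Dnmt1 lay in its window 3. Shown are a helicase subunit with 3 E2F matches, Mki67 with 2 CHR matches, and Pcna, whose window held neither. E2F and CHR letters are in capitals, and the first pair of E2F matches in Mcm6 overlaps on opposite strands. All 3 genes lie on the minus strand and each sequence is given in the direction of transcription, from the windows chr1:128359706-128359955 (Mcm6), chr7:135716380-135716629 (Mki67) and chr2:132253181-132253430 (Pcna).
Mcm6: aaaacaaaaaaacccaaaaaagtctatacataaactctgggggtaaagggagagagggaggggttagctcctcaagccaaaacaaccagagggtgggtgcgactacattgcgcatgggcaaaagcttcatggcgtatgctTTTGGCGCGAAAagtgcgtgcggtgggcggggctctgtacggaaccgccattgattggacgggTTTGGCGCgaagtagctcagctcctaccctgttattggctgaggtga
Mki67: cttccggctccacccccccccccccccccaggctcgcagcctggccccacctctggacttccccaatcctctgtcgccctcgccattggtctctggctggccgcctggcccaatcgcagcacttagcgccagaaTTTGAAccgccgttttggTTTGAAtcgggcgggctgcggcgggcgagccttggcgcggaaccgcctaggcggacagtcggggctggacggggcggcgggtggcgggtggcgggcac
Pcna: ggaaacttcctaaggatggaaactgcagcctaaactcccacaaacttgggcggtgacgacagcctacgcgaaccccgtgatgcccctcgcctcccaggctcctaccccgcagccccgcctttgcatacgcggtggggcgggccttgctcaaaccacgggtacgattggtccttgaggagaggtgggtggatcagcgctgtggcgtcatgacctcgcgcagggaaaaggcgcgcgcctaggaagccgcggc

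A run held from 68083 to 109064 M/L peptide pairs. Levels across the time course are given as scaled ratios, M/L or H/L divided by 1 factor per run, which was set so that the median protein's sum of M/L and H/L is the same in all runs. Every time course is thus relative to the median protein. The peptide pairs behind a member's M/L ratio set its precision, and their median per run was 52 for Pcna, 26.5 for Mcm2 and Mcm3, 24.5 for Mcm7, 23 for Dnmt1, 22 for Mcm6, 14 for Mcm5, 12.5 for Mcm4, 12 for Mki67 and 1 for Top2a. The first 9 of these had M/L and H/L in all 42 runs and were tested. Top2a had M/L in 14 runs and H/L in 10, from 59 M/L pairs in all, and was not tested. The H channel was not empty at 0 h: the all-protein median of the H share, H/(H + M), was 13.9% there, so a low H/L ratio can be background.

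At 0 h in the tryptic runs, and in the AspN and LysN baseline samples, the clamp was the most abundant member. The chromosome-coating protein was among the scarcest. This is measured by iBAQ, the intensity per peptide a protein can give, as a share of the summed iBAQ in ppm, so that different proteins can be set side by side. In the tryptic M channel Pcna stood at 525 and 561 ppm in the 2 replicates. The 6 helicase subunits had means from 14.1 (Mcm4) to 31.1 (Mcm7), Dnmt1 had 9.89 and 7.78, Mki67 2.20 and 1.75, and Top2a 0.391 and 1.40. The highest subunit mean was 2.21 times the lowest with trypsin, 4.03 times with AspN and 3.78 times with LysN, while in the tryptic M channel Pcna was 24.0 times their mean and Mki67 0.0873 times. In AspN digests Pcna was 52.4 times the subunit mean and in LysN digests 16.7 times, so the order Pcna, helicase, Mki67 was the same in all 3 digests. The place of Dnmt1 and Top2a was not: Dnmt1 was 0.390 times the subunit mean with trypsin and 1.25 times with LysN, and Top2a ranged from 0.897 ppm (trypsin) to 20.3 (AspN) and 42.5 (LysN).

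**Figure D1:**
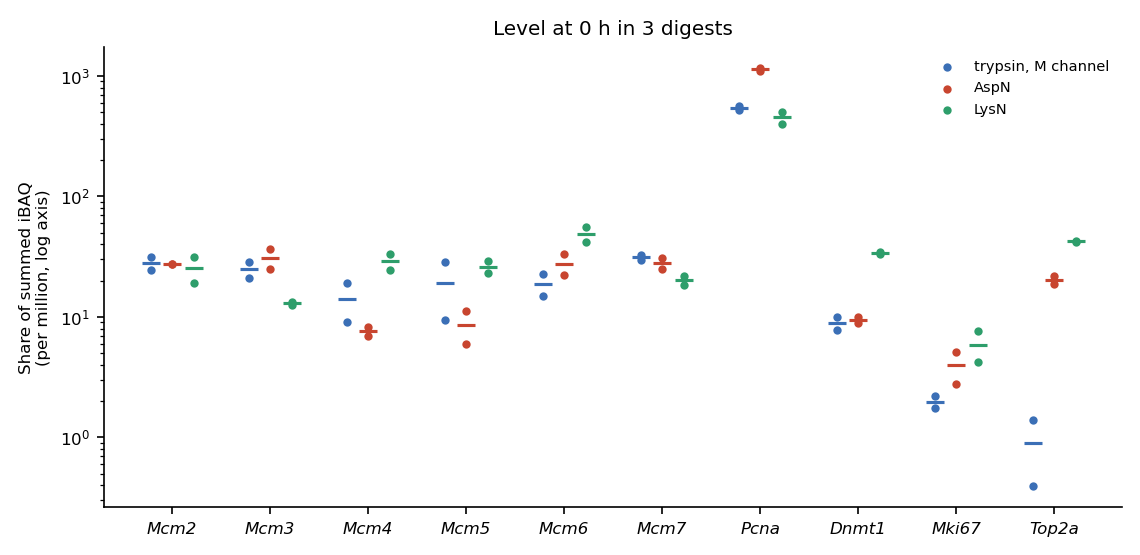
Level of each member as share of summed iBAQ (ppm, log axis) in tryptic digests at 0 h and in AspN and LysN digests of baseline cells, with 2 replicates as points and their mean as a bar. Pcna lies far above the helicase subunits in all 3 digests, whereas Top2a moves from 0.897 to 42.5 ppm with the enzyme.

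The first comparison asks how the stock of protein made before 0 h was lost. It fell for all 9 tested members by 24 h in both arms, in 2 patterns: the 6 helicase subunits fell together and moderately, and Pcna, Dnmt1 and Mki67 fell further. Mcm7 had a scaled M/L of 1.04 and 0.949 at 0 h, 0.607 and 0.662 in mock at 24 h, and 0.648 and 0.687 in LPS at 24 h. Mcm2, which with Mcm3 had the most peptide pairs of the subunits, had 1.09 and 1.14, then 0.647 and 0.671 in mock, and 0.751 and 0.728 in LPS. Mcm6 had 0.953 and 0.919, then 0.578 and 0.593 in mock, and 0.602 and 0.657 in LPS. In each of these subunits every 24 h run was below both 0 h runs, with no overlap.

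Mcm3 had 0.999 and 0.898 at 0 h, 0.575 and 0.630 in mock at 24 h and 0.630 and 0.613 in LPS. Mcm4 went from 1.10 and 1.16 to 0.615 and 0.677 in mock and 0.753 and 0.684 in LPS. Mcm5 went from 1.15 and 1.24 to 0.748 and 0.639 in mock and 0.768 and 0.723 in LPS. In these 3 subunits too no 24 h run reached the level of 0 h. The 6 subunits stayed close to each other: their lowest, median and highest M/L were 0.936, 1.05 and 1.19 at 0 h and 0.586, 0.639 and 0.691 in mock at 24 h. On the log2 scale the subunits changed in mock by between -0.81 (Mcm4, SE 0.11) and -0.65 (Mcm7, SE 0.06), and in LPS by between -0.68 (Mcm5) and -0.57 (Mcm7).

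Pcna M/L went from 1.12 and 1.24 at 0 h to 0.419 and 0.443 in mock and 0.517 and 0.533 in LPS at 24 h. Dnmt1 went from 1.05 and 1.09 to 0.495 and 0.532 in mock and 0.525 and 0.403 in LPS. Mki67 started highest of the 9, at 1.76 and 1.61, and was at 0.540 and 0.497 in mock, above both Pcna runs, and at 0.246 and 0.319 in LPS, the lowest of the 9. For Mki67 the 4 runs at 24 h were all far below 0 h, and both LPS runs were below both mock runs. The log2 changes in mock were -1.46 ± 0.08 (SE, 2 against 2 runs, limma adjusted p = 2.17e-12) for Pcna, -1.06 ± 0.12 (adjusted p = 6.66e-08) for Dnmt1 and -1.70 ± 0.16 (adjusted p = 1.07e-08) for Mki67, and in LPS -1.17 ± 0.08, -1.22 ± 0.12 and -2.58 ± 0.16.

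All 9 tested members were thus called lower in each arm. The same call, in either direction, was made for 61% of all proteins in mock and 59.7% in LPS, and the call of lower for 49.2% and 59%, so the count says little and the size says more. The members' median log2 change in mock was -0.79, against -0.29 for all proteins. As a share of the 0 h mean, the M form kept at 24 h in mock was 30.8% for Mki67, 36.4% for Pcna, 47.9% for Dnmt1 and 57.2% to 63.9% for the helicase subunits, with an all-protein median of 82.1%. In LPS these were 16.8%, 44.4%, 43.3% and 62.4% to 67.3%, with a median of 79.5%. A lower share than that of Mki67 was kept by 1.07% of proteins in mock and 0.45% in LPS, whereas 12.5% to 19.8% of proteins in mock kept less than a helicase subunit did. The 9 calls per arm held whichever run was left out. With summed intensities in place of ratios those of Mcm5 (-0.35) and Dnmt1 (-0.41, adjusted p = 0.556) were lost in mock, and those of Mcm5 (-0.70), Mcm7 (-0.49) and Dnmt1 (-1.01, adjusted p = 0.122) in LPS. With channels centred separately, Mcm3 (-0.26) and Mcm5 (-0.33) were lost in LPS. Without the run factor Pcna, Mki67 and Dnmt1 alone still passed in LPS, with all 9 values negative, and the all-protein median then moved by -0.24 (LPS) and -0.48 (mock). The labels' protocols name harvest times only as far as 12 h, so how the cells of the 24 h runs were harvested is unknown here, a doubt on all 24 h values.

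**Figure D2:**
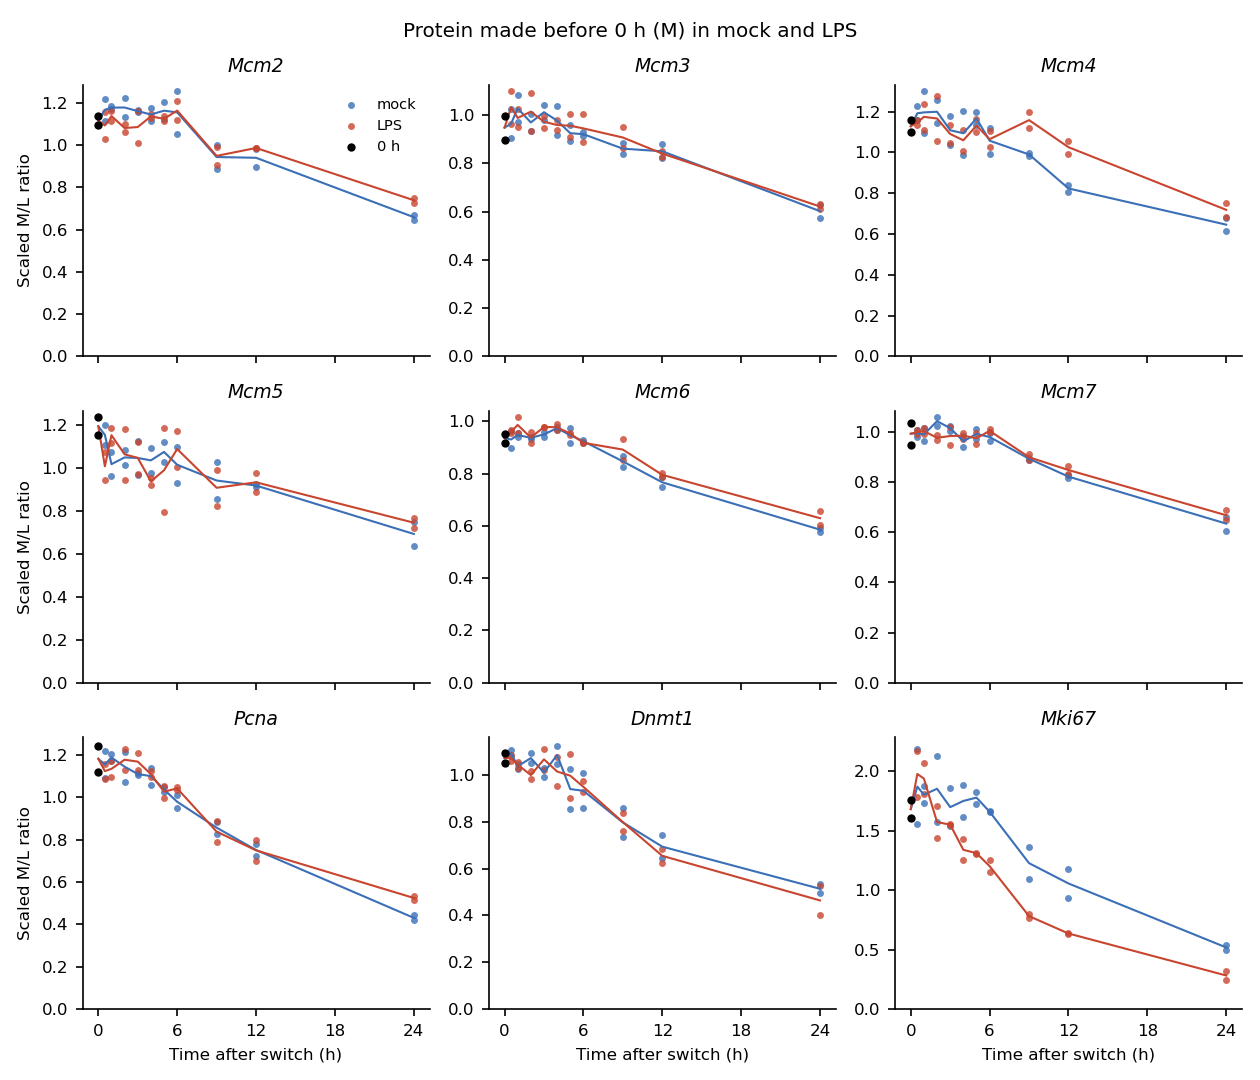
Scaled M/L ratio (protein made before 0 h) against hours after the switch for the 9 tested members, with points for single runs, lines for the mean of 2 replicates, mock in blue, LPS in red and 0 h in black. The helicase subunits stay near their 0 h level until about 6 h and end at 57.2% to 67.3% of it, and the mock and LPS lines of Mki67 come apart.

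Whether new protein replaced the loss was read from H/L, and here the members split. H/L rose from 0 h to 24 h for Pcna and Dnmt1 in both arms, and none of the helicase subunits nor Mki67 passed the test. Pcna H/L was 0.0946 and 0.0805 at 0 h, 0.382 and 0.438 in mock at 24 h and 0.482 and 0.532 in LPS. Dnmt1 H/L was 0.192 and 0.187 at 0 h, 0.341 and 0.500 in mock and 0.467 and 0.471 in LPS. For both proteins every 24 h run was above both 0 h runs. The log2 rise of Pcna was 2.23 ± 0.20 (adjusted p = 2.67e-09) in mock and 2.54 ± 0.20 (adjusted p = 2.33e-10) in LPS, and that of Dnmt1 1.12 ± 0.29 (adjusted p = 0.00259) and 1.31 ± 0.29 (adjusted p = 0.000526). The same test called 49.6% of all proteins in mock and 52.6% in LPS (49.5% and 52.6% called higher), so 2 of 9 members is a smaller share than among proteins at large. The all-protein median rise was 1.12 in mock and 1.24 in LPS, close to that of Dnmt1. The Dnmt1 call in mock was lost without replicate 2 of the mock 24 h group and with only the runs of the comparison in the fit. In both arms it was lost without the run factor, with summed intensities and with channels centred separately (-0.0564 and -0.0002). Both Pcna calls held under every alternative.

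Mcm7 H/L was 0.153 and 0.201 at 0 h, 0.148 and 0.106 in mock at 24 h and 0.221 and 0.145 in LPS. Mcm2 H/L was 0.173 and 0.133, then 0.142 and 0.172 in mock and 0.106 and 0.107 in LPS. Mki67 H/L was 0.342 and 0.201, then 0.367 and 0.240 in mock and 0.288 and 0.224 in LPS. For Mki67 the groups overlapped, whereas both mock runs of Mcm7 and both LPS runs of Mcm2 were below both 0 h runs without passing the test. The log2 difference in mock was -0.49 for Mcm7, with a 95% interval from -1.26 to 0.28, 0.04 for Mcm2 (-0.62 to 0.71) and 0.18 for Mki67 (-0.52 to 0.87), so a rise as large as that of the median protein, 1.12, lies outside all 3 intervals. Mcm4 (1.30 ± 0.64, adjusted p = 0.0942) and Mcm5 (0.89 ± 0.66, adjusted p = 0.263) had higher means at 24 h in mock with wide errors. The members' median was 0.18.

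Set against the M form that was lost, the H form gained by 24 h in mock came to 42.9% for Pcna, 41.3% for Dnmt1, 63.7% for Mcm4 and 28.3% for Mcm5, but to 0.823% for Mcm2, 2.73% for Mki67, and -10.5%, -8.52% and -14.1% for Mcm3, Mcm6 and Mcm7. In LPS it was 63.8% for Pcna and 46.0% for Dnmt1, 33.9% for Mcm4, 21.5% for Mcm5, and between -12.5% and 2.16% for the other helicase subunits and Mki67. Negative values mean that H/L at 24 h was below that at 0 h. These shares have no error of their own and rest on 2 runs per group. They also depend on the 0 h runs, since H/L did not stay level in between. In mock the mean H/L of Mcm7 was 0.177 at 0 h, 0.0790 at 4 h and 0.127 at 24 h. That of Mcm3 was 0.188 at 0 h, 0.0930 at 3 h and 0.152 at 24 h. A share near or below 0 therefore does not show that no new protein was made. The H share at 24 h was 49.5% ± 1.30 (SD, n = 2) in mock and 48.2% ± 0.174 in LPS for Pcna, against 6.77% ± 0.636 at 0 h. For Mcm2 it was 18.8% ± 0.125 and 14.7% ± 0.652, below the all-protein medians of 28.9% (mock) and 31.1% (LPS). Mcm2 had the lowest mean H share of the helicase subunits at 24 h in both arms. In mock the means of Mcm4 (44.5%) and Mcm5 (33.4%) were above the median. Those of Mcm3 (20.4%), Mcm6 (21.2%) and Mcm7 (20.2%) were below it. In LPS the means of all subunits were below the median, with Mcm4 the highest at 30.8%.

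**Figure D3:**
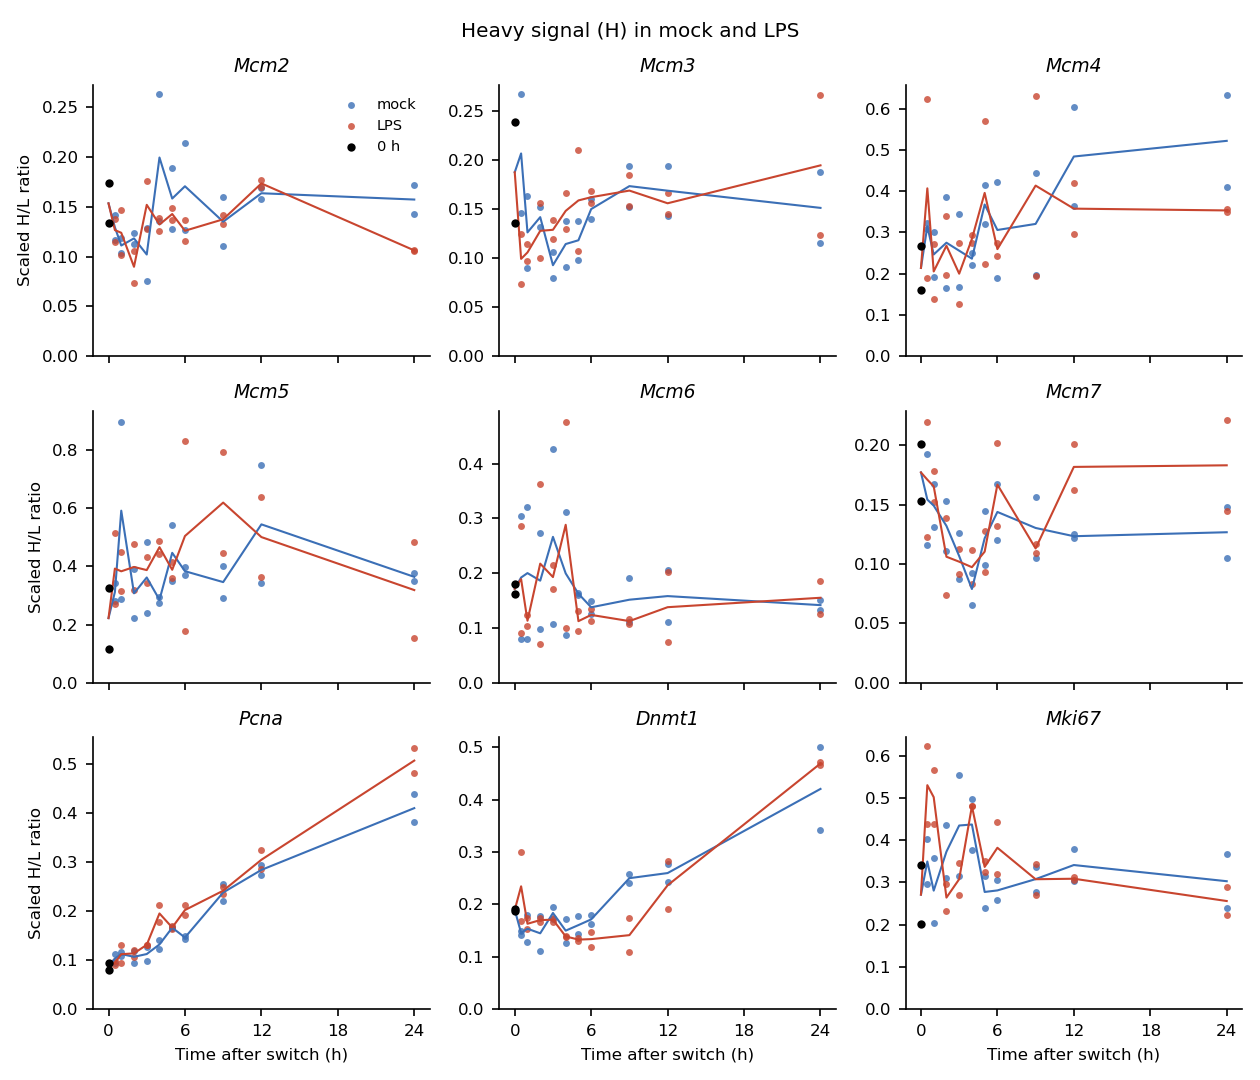
Scaled H/L ratio (signal in the heavy channel) against hours after the switch for the 9 tested members, with points for single runs, lines for the mean of 2 replicates, mock in blue, LPS in red and 0 h in black. Pcna rises over the whole course, Dnmt1 rises after 6 h, and Mcm2, Mcm3, Mcm6 and Mcm7 have no called change at 24 h. In mock the means of Mcm3 and Mcm7 dip on the way, to 0.0930 at 3 h and 0.0790 at 4 h. The replicates of Mcm6 lie apart at some early times, as at 3 h in mock (0.426 and 0.106).

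The pace of replacement was also fitted without 24 h, regressing log2 of M/(M + H) on time over 0.5 to 12 h, a value that needs no run factor and does not separate growth. In mock 3 of 9 members had a called slope, Pcna with a half-time of 34.5 h (adjusted p = 1.27e-08), Dnmt1 with 37.4 h (adjusted p = 5.53e-07) and Mcm4 with 34.5 h (adjusted p = 0.013), among 35.8% of all proteins called. In LPS 6 of 9 did (all proteins 41.8%), with half-times of 31.6 h for Pcna, 37.6 h for Mki67, 90.6 h for Dnmt1, 32.9 h for Mcm5, 82.9 h for Mcm3 and 112 h for Mcm2. The all-protein median half-time, over proteins with a called loss, was 59.9 h in mock and 46.3 h in LPS. The half-time of Pcna was below that median in both arms, a difference that was not tested. The Mcm4 and Mcm5 calls were lost when either replicate was left out, that of Mcm2 without replicate 1 and that of Dnmt1 in LPS without replicate 2. From 3 to 12 h those of Mcm4, Mcm3 and Mcm5 were lost. With 24 h included the LPS slope of Mcm5 went from -0.0304 to -0.0047 per h and its call was lost, that of Dnmt1 from -0.011 to -0.0347 per h, and that of Mcm2 from -0.0089 to -0.0044 per h.

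The net level, M plus H, fell for 7 of the 9 tested members between 0 h and 24 h in mock, where 31.7% of all proteins were called in either direction and 13.5% lower, and for 7 of 9 in LPS, where 14.9% and 5.52% were. Mki67 fell furthest: its sum of M/L and H/L was 2.10 and 1.81 at 0 h, 0.906 and 0.736 in mock and 0.535 and 0.542 in LPS at 24 h. Pcna had 1.22 and 1.32, then 0.801 and 0.880 in mock and 0.998 and 1.06 in LPS. In both proteins all 24 h runs were below both 0 h runs. The log2 changes of Mki67 were -1.25 ± 0.13 (adjusted p = 1.51e-07) in mock and -1.85 ± 0.13 (adjusted p = 2.22e-10) in LPS.

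Mcm2 changed by -0.64 ± 0.09, Mcm3 by -0.60 ± 0.09, Mcm6 by -0.61 ± 0.15 and Mcm7 by -0.62 ± 0.07 in mock, a narrow range, and by -0.59, -0.48, -0.50 and -0.46 in LPS. Pcna changed by -0.60 ± 0.08 in mock and -0.30 ± 0.08 in LPS, and Dnmt1 by -0.44 ± 0.12 in each. Mcm4 (-0.21 ± 0.18, adjusted p = 0.428) and Mcm5 (-0.42 ± 0.21, adjusted p = 0.132) did not pass in mock, nor in LPS (-0.32 and -0.42). The members' median was -0.60 in mock and -0.46 in LPS, against 0.01 and -0.02 for all proteins. The 2 arms share their 0 h runs. By 6 to 12 h only Mcm7 (-0.19 ± 0.05) and Pcna (-0.23 ± 0.07, both adjusted p = 0.026) had passed in mock, among 10.2% of all proteins (3.42% lower), and only Mki67 (-0.73 ± 0.11, adjusted p = 5.05e-05) and Dnmt1 (-0.39 ± 0.10, adjusted p = 0.0131) in LPS, among 6.54% (1.52% lower).

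These net changes are less firm than the loss of M. Without the run factor 1 of 9 members passed at 24 h in each arm, with only the 4 runs of the comparison in the fit 0 passed in mock and 2 in LPS, and the deposited normalised ratios, which centre M/L and H/L each on their own, turned the sign of 4 of the 7 in mock and 5 of the 7 in LPS. Leaving out 1 run left 6 or 7 in mock, where Dnmt1 was lost without replicate 1 of mock 24 h, and 4 or 5 in LPS. There Mcm6 was lost without any 1 of the 4 runs, Pcna without replicate 2 of 0 h or replicate 1 of LPS 24 h, and Dnmt1 without either 0 h run or replicate 2 of LPS 24 h. The calls at 6 to 12 h of Mcm7, Pcna and Dnmt1 were lost without either 0 h run, and in mock also without replicate 1 of 6 h for both, replicate 2 of 9 h for Mcm7, and replicate 1 of 9 h or 12 h for Pcna.

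LPS against mock is the contrast the study was built on. Among the members Mcm4, Dnmt1 and Pcna had called differences, given below, and Mki67 had the largest in M/L and the sum. At 6 h its scaled M/L was 1.66 and 1.66 in mock and 1.25 and 1.15 in LPS. At 9 h it was 1.36 and 1.10 in mock and 0.766 and 0.798 in LPS. At 12 h it was 0.939 and 1.18 in mock and 0.629 and 0.643 in LPS. At each of these times both LPS runs were below both mock runs, although the mock runs of 12 h reached the level of the LPS runs of 6 h. Over 6, 9 and 12 h the difference was -0.61 ± 0.10 on the log2 scale (6 against 6 runs, adjusted p = 6.12e-05), or 1.53-fold lower in LPS, with LPS lower in 6 of 6 pairs of like time and number. The sum of M/L and H/L differed by -0.45 ± 0.08 (adjusted p = 0.000123, lower in 6 of 6), and the H/L by 0.10 ± 0.19 (adjusted p = 0.9, interval from -0.31 to 0.50). Both calls held whichever run was left out and were lost without the run factor, where the values were -0.45 ± 0.25 for M/L and -0.28 ± 0.24 for the sum, and with summed intensities in place of ratios (-0.62 and -0.42). With deposited normalised ratios the M/L difference was -0.38 ± 0.09 and still called, and the call for the sum was lost (-0.53 ± 0.21, adjusted p = 0.0882).

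The gap of Mki67 opened with time, though not evenly. Over 1, 2 and 3 h it was -0.08 ± 0.10, with an interval from -0.28 to 0.11. The mean M/L was higher in LPS at 1 h, at 1.94 against 1.80 in mock. It was 1.57 in LPS against 1.85 in mock at 2 h, 1.55 against 1.70 at 3 h, 1.34 against 1.75 at 4 h and 1.31 against 1.78 at 5 h. The late minus early difference was itself called, at -0.53 ± 0.13 for M/L (adjusted p = 0.0205) and -0.36 ± 0.11 for the sum (adjusted p = 0.0336), where 5.41% and 10.2% of all proteins were called. For H/L no member was called, among 6.49% of all proteins. The call for M/L was lost without replicate 1 of mock 3 h (or all of replicate 1 or 2) or replicate 2 of mock 12 h, and that for the sum on leaving out 12 of the 24 runs, 1 at a time: in mock replicate 2 of 1, 6 or 12 h and replicate 1 of 2, 3 or 9 h, and in LPS replicate 1 of 1, 3, 6 or 9 h and replicate 2 of 2 or 12 h. At 24 h the M/L of Mki67 was lower in LPS by -0.89 ± 0.16 (adjusted p = 0.000158), or 1.85-fold, and the sum by -0.60 ± 0.13 (adjusted p = 0.000971).

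Among the other members Mcm4 differed in M/L and Dnmt1 in H/M over 6 to 12 h. In M/L 2 of 9 members were called, where 16.5% of all proteins were. The second was Mcm4, at 1.10, 1.03, 1.20, 1.12, 1.06 and 0.994 in LPS (6, 9 and 12 h, 2 replicates each) against 0.994, 1.12, 0.999, 0.981, 0.842 and 0.805 in mock. LPS was higher in 5 of 6 pairs and the groups overlapped. The difference of 0.18 ± 0.06 (adjusted p = 0.0398) was lost on leaving out 7 of the 12 runs of the comparison, 1 at a time: replicate 1 of LPS 6, 9 or 12 h, replicate 1 of mock 6 h, either run of mock 9 h, and replicate 2 of mock 12 h. It was also lost without the run factor, with deposited normalised ratios (0.05 ± 0.04), with summed intensities and with only the runs of the comparison in the fit.

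Dnmt1 was the only member called in H/M over 6 to 12 h. Its H/M ratio was 0.157 and 0.157 at 6 h, 0.330 and 0.313 at 9 h and 0.327 and 0.371 at 12 h in mock, and 0.131 and 0.143, 0.175 and 0.138, and 0.326 and 0.240 at the same times in LPS. LPS was lower in 6 of 6 pairs, most clearly at 9 h, and the groups overlapped across times. The log2 difference was -0.52 ± 0.17 (adjusted p = 0.048), in a comparison that called 12% of all proteins and 1 of 9 members. It was lost without replicate 1 (-0.65, adjusted p = 0.227) and without replicate 2 (-0.39, adjusted p = 0.718). The slope of its M share was less steep in LPS by 0.0157 ± 0.0049 per h (adjusted p = 0.0228, 13.9% of all proteins called). That call was lost when either replicate was left out, and with 24 h included the difference was -0.0028. Its H/L difference of -0.46 ± 0.17 did not pass (adjusted p = 0.0779). No member was called for H/L, where 12.1% of all proteins were, and 1 of 9 (Dnmt1) had an unadjusted p under 0.05. At 24 h the H/L of Dnmt1 was 0.467 and 0.471 in LPS against 0.341 and 0.500 in mock, which overlap. Its H/M at 24 h went the other way from 6 to 12 h, without a call. The values were 0.9535 and 1.145 in LPS against 0.7965 and 0.888 in mock, with no overlap.

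At 24 h Pcna was higher in LPS than in mock, at the M/L values given above, by 0.28 ± 0.08 on the log2 scale (2 against 2 runs, adjusted p = 0.00809), and in the sum by 0.30 ± 0.08 (adjusted p = 0.00535). In both measures the 2 LPS runs were above the 2 mock runs. Pcna and Mki67 were the 2 of 9 members called in M/L, where 37% of all proteins were called, and in the sum, where again 37% were. Both Pcna calls were lost without replicate 1 of mock 24 h (0.25 and 0.23) and without replicate 2 of LPS 24 h (0.26 and 0.25), and with only the 4 runs in the fit neither Pcna nor Mki67 passed (adjusted p = 0.133 and 0.0573 for M/L). The Mki67 call in the sum was also lost when replicate 1 was left out of both arms. No member was called in H/L at 24 h (9.53% of all proteins) or in H/M (8.11%), with 0 of 9 at an unadjusted p under 0.05 in each.

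The helicase held no called difference between the arms in the sum of M/L and H/L, over 6 to 12 h or at 24 h. Over 6 to 12 h the values of the 6 subunits lay between -0.003 (Mcm6, interval from -0.19 to 0.18) and 0.13 (Mcm5, -0.12 to 0.38), and that of Mcm7, the narrowest, was 0.06 (-0.02 to 0.13). At 24 h Mcm7 was at 0.16 ± 0.07 (adjusted p = 0.0592), and with replicate number as a block it passed (adjusted p = 0.0404). A p that misses the threshold does not show that the arms are alike, and the 6 to 12 h intervals of Mcm2 (-0.09 to 0.12) and Mcm3 (-0.09 to 0.13) bound how large a difference these data allow. Over 1, 2 and 3 h none of the 9 members was called for M/L, H/L, the sum or H/M, among 0.332%, 0.475%, 0.742% and 0.356% of all proteins, and 0 had an unadjusted p under 0.05 in any of them.

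**Figure D4:**
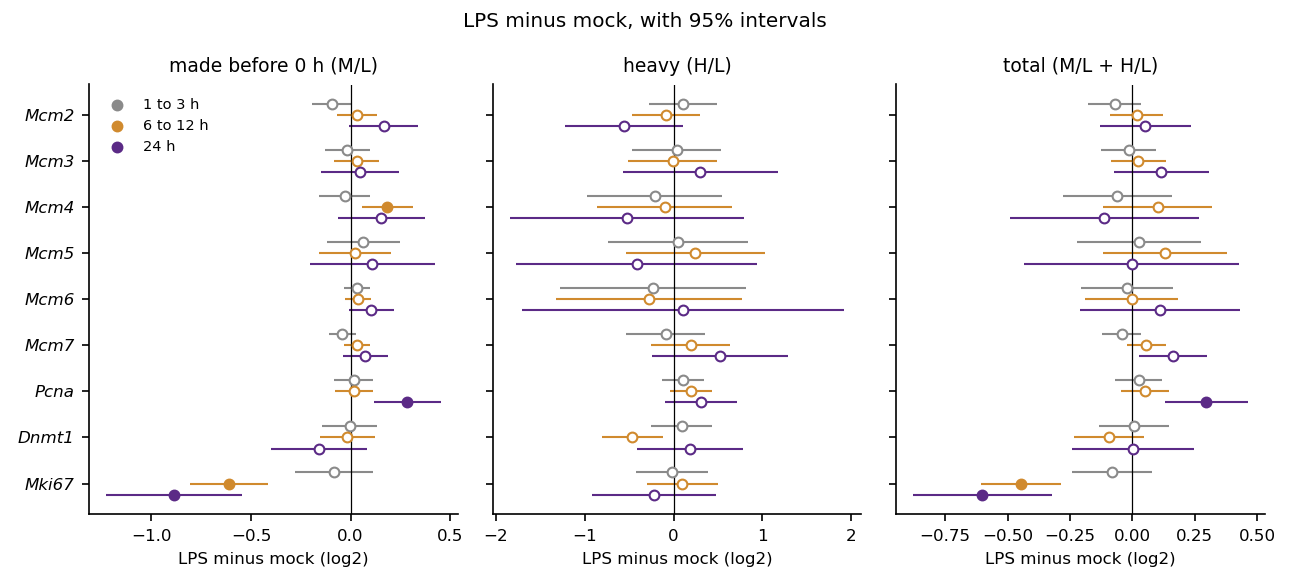
LPS minus mock on the log2 scale for the 9 tested members in M/L, H/L and their sum, as means with 95% intervals from limma, over 1 to 3 h, 6 to 12 h and 24 h, with filled points at an adjusted p under 0.05. Mki67 lies to the left in M/L and the sum at 6 to 12 h (-0.61 and -0.45) and at 24 h (-0.89 and -0.60), and the intervals of H/L are the widest.

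The proteins that work beside the members give the setting, in comparisons where 13.5% of all proteins in mock and 5.52% in LPS were called lower. Of 29 listed polymerase, clamp loader and lagging-strand genes, 22 had a protein group and 6 could be tested from 0 h to 24 h in mock. In the sum of M/L and H/L 2 of these fell, Pole3 (-0.70 ± 0.21), a histone-fold subunit of polymerase epsilon, and Rpa3 (-0.47 ± 0.11), a subunit of the single-strand binding complex, and the median of the 6 was -0.45. In LPS 3 of 10 fell, the clamp loader subunits Rfc2 (-0.67 ± 0.11) and Rfc1 (-0.62 ± 0.09), and Rpa3 (-0.64 ± 0.11). Of origin licensing and helicase genes, 1 of 24 was tested, Mcmbp, which binds the Mcm complex, at -0.53 ± 0.20 in mock (adjusted p = 0.041) and -0.08 in LPS. Rrm1, the large subunit of ribonucleotide reductase, fell in both arms (-0.71 ± 0.24 and -0.94 ± 0.24), as did the histone chaperone Nasp (-0.54 ± 0.08 and -0.43 ± 0.08). These are single proteins and do not stand for their lists. Of 15 deoxynucleotide supply genes 10 had a protein group and 9 a value in any run, and of 10 chromatin assembly genes 8 and 7. Dck and Samhd1 of the supply list rose in LPS, as given below.

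Some cell cycle proteins fell as well, in the same comparisons, where 13.5% of all proteins in mock and 5.52% in LPS were called lower. In mock 4 of 5 tested proteins of mitosis and cell cycle control fell, the kinases Cdk1 (-1.11 ± 0.19), Cdk2 (-0.93 ± 0.20) and Cdk6 (-0.44 ± 0.11) and the microtubule-destabilising Stmn1 (-0.77 ± 0.09), out of 46 genes in the list. In LPS 3 of 6 did: Cdk1 (-1.21 ± 0.19), Cdk2 (-0.64 ± 0.20) and Stmn1 (-0.61 ± 0.09). The condensin ATPases Smc2 (-0.94 ± 0.15) and Smc4 (-0.77 ± 0.16) fell in mock, and Smc2 (-0.50 ± 0.15) and Smc4 (-0.68 ± 0.16) in LPS. The condensin subunit Ncaph went the other way in mock (2.56 ± 0.92, adjusted p = 0.0398), so that 2 of 9 cohesin and condensin proteins fell and 1 rose, with a median of -0.01. Most genes of these lists were not measured well enough to test, so the counts describe the abundant ones.

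Not every replication-related protein fell. Dnmt3a, a de novo methyltransferase, rose in mock (1.02 ± 0.15, adjusted p = 1.14e-05) while Dnmt1 fell, and at 24 h it was lower in LPS than in mock (-0.94 ± 0.15). In LPS the deoxycytidine kinase Dck (1.07 ± 0.27) and the deoxynucleotide hydrolase Samhd1 (0.44 ± 0.07) rose from 0 h to 24 h. Both were also higher in LPS than in mock over 6 to 12 h (0.61 ± 0.15 and 0.15 ± 0.04), the window in which Mki67 was lower. In that window the cell cycle inhibitor Cdkn1a (p21) was higher in LPS by 1.19 ± 0.08 (adjusted p = 5.39e-07), or 2.29-fold, Cdk6 by 0.21 ± 0.06, and Bub3, a spindle checkpoint protein, lower by -0.19 ± 0.07. These were 3 of 7 tested proteins of the mitosis and cell cycle list, where 19.2% of all proteins were called.

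Markers of other cells moved over the same hours. The culture showed dendritic cell proteins (12 of 17 listed genes had a protein group, among them Itgax, Cd74, H2-Aa, H2-Ab1 and Fscn1) and no protein group for any of 12 lymphocyte genes. A protein group was also found for 14 of 15 neutrophil and granulocyte precursor genes and 9 of 11 macrophage genes. For progenitor, erythroid and platelet genes it was 5 of 18. Presence alone thus does not show that the culture was pure. As a summary, the scaled M/L and H/L of all proteins of a set were added up in each run. Each protein thus counts relative to the light mix and not by its abundance. Sums of different sets therefore cannot be set side by side as levels. The sum of 6 neutrophil and granulocyte precursor markers of 15 listed (Chi3l3, Ltf, Mpo, Ngp, S100a8 and S100a9) was 14.2 to 14.3 at 0 h, 10.8 to 11.2 in mock at 24 h and 4.54 to 4.71 in LPS at 24 h. That of the 9 members was 11.8 to 12.0, 7.63 to 8.13 and 7.82 to 8.05. That of 7 macrophage markers of 11 listed was 5.58 to 5.71, 9.17 to 10.7 and 6.97 to 7.06, and that of 8 dendritic cell markers 5.35 to 5.97, 7.41 to 8.39 and 7.88 to 8.70. From 0 h to 24 h in mock 3 of 8 granulocyte markers fell (13.5% of all proteins) and 1 rose, and in LPS 5 of 7 fell (5.52% of all proteins). The granulocyte sum thus hides unlike moves in mock, where S100a9 and S100a8 changed by -1.44 and -1.16 on the log2 scale. The part of these cells in the members' fall was not tested.

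Among proteins outside the members measured in all 42 runs, eosinophil and S100 proteins were closest to the helicase in the pattern of net level. The pattern was read by correlation, which ignores the size of a change. Most genes of the replication lists were not measured well enough to enter this ranking. Stmn1, the last of the proteins named below, is on the cell cycle list. Over the 42 runs the mean log2 sum of Mcm2 to Mcm7 was compared with each of 2463 proteins outside the members, as a description over runs that share a time course. Pearson's r was highest for Prg2 (0.905) and Epx (0.904), granule proteins of eosinophils, S100a9 (0.895) and S100a8 (0.848), abundant in neutrophils, then Fasn (0.833), the fatty acid synthase, Mt1 (0.820), a metallothionein, Hmgb2 (0.801), a chromatin protein, and Stmn1 (0.792). Of the members left out of the ranking, Mki67 had 0.805, above Hmgb2, Pcna 0.724 and Dnmt1 0.630. The subunits had from 0.636 (Mcm4) to 0.926 (Mcm3), with a mean that includes them. From 0 h to 24 h Prg2 changed by -1.57 ± 0.12 in mock and -1.42 ± 0.12 in LPS, Epx by -0.84 ± 0.11 and -0.92 ± 0.11, and S100a9 by -1.44 ± 0.07 and -1.56 ± 0.07, all further than the helicase mean of -0.52 and -0.46. At 12 h, where the helicase mean was at -0.16 in mock and -0.12 in LPS, Prg2 was at -0.69 and -0.63 and S100a9 at -0.76 and -0.32.

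**Figure D5:**
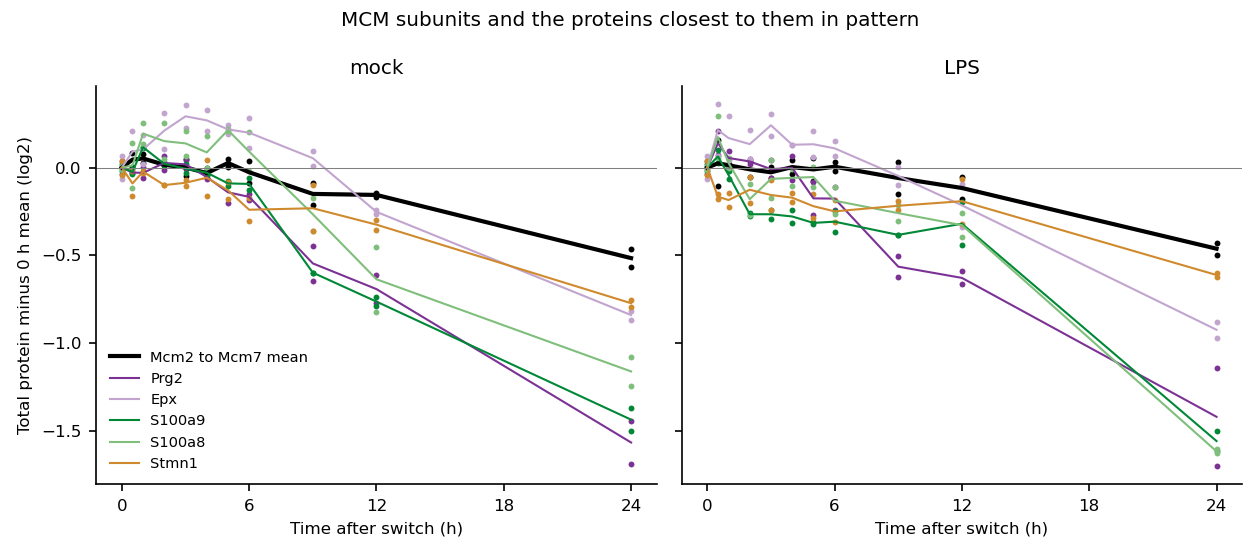
Sum of scaled M/L and H/L on the log2 scale, minus its 0 h mean, against hours after the switch for the mean of Mcm2 to Mcm7 and for Prg2, Epx, S100a9, S100a8 and Stmn1, in mock and LPS, with points for single runs and lines for means of 2 replicates. At 24 h the means of the 5 proteins lie between -1.62 and -0.61, below the helicase mean of -0.52 in mock and -0.46 in LPS.

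Top2a could be followed only while it was measured. Its scaled M/L was 2.50 and 1.40 at 0 h, 1.90 and 2.24 at 0.5 h and 2.19 and 1.80 at 1 h in mock, and 2.74 and 2.29 at 0.5 h in LPS. Later it was measured in 1 replicate at most: in mock at 2.18 (2 h), 2.11 (3 h), 1.35 (6 h) and 0.455 (12 h), and in LPS at 2.27 (1 h) and 1.71 (2 h). The single mock value at 12 h was the lowest of the 14, and no M/L was measured in LPS after 2 h or in either arm at 24 h. With 0 to 6 peptide pairs per run, whether Top2a fell or was merely not sampled cannot be told apart.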

How the data were processed

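Labels gave treatment, time, channel and replicate for all 88 samples. Whether the 2 replicates came from separate cultures is not stated, and p-values then reflect only how these samples vary, possibly for technical reasons. Per the file headers, the authors deposited SILAC ratio values (M/L, H/L, H/M) per protein group and run in MaxQuant's columns. A deposited ratio count gives the peptide pairs behind a ratio and served as the depth. The deposited intensity is summed per channel, and iBAQ divides it by the number of possible peptides. Search settings and the make-up of the light mix: not given in the sources used here. The submitters' processing notes list the build mm9.

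Of 6266 tryptic groups, 90 reverse, 97 contaminant and 216 found only by site were left out (a group can carry several marks), which kept 5899. AspN and LysN tables kept 3752 of 3839 and 4049 of 4138. Un-normalised ratios with a ratio count of at least 2 were scaled per run by the median sum of both ratios across the 2628 proteins whose M/L was present in all runs (this factor on log2 -0.68 to 0.69, LPS 12 h replicate 2 standing apart at 0.69). limma 3.58.1 (R 4.3.3) fitted log2 M/L, H/L, their sum, and H/M without the factor, as means of 21 groups, on the whole table. P-values (two-sided) were adjusted by Benjamini-Hochberg across the whole table for each comparison, and a call means under 0.05. A protein needed 4 of 6 values per arm, or 2 of 2 at 0 and 24 h. Slopes over time of -log2(1 + H/M), 0.5 to 12 h, needed 12 of 18 runs, and the half-time is -1/slope. Spread is shared by all groups. Per the file headers the first gene name was used, and 115 groups had none. Code was tested on simulated data.

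The members, gene lists and tests were chosen with earlier results of these data known. The 24 h against 0 h tests of M/L and H/L and the LPS slope were added after values were seen. All members are named. Of other lists, called proteins are named, at most 4 per list and direction, largest first, and not all of these are printed. Likeness to the helicase was read over proteins measured in all 42 runs. Alternatives were run scaling, ratio count, intensities, the replicate block, fewer samples and left-out runs. Figures used Python 3.11.15, pandas 2.3.3, numpy 2.4.6 and matplotlib 3.10.9.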

Additional observations from a re-analysis of the deposited data

Results flagged for a closer look

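For Mki67 the effect of LPS differed between time windows by a test of the difference itself. Late (6, 9 and 12 h) minus early (1, 2 and 3 h), the LPS minus mock difference was -0.53 on the log2 scale for M/L (adjusted p = 0.0205 by limma) and -0.36 for the sum of M/L and H/L (adjusted p = 0.0336). Both calls were lost without the run factor and with summed intensities, and that for M/L also with deposited normalised ratios. Each was also lost on leaving out certain single runs, as given above.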

How the results depend on the processing

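Counts below are of the 9 tested members. Over all alternatives the count of members called stayed within 1.5 times for 315 values and moved for 112. The other values are single estimates, counts of all proteins called and 0 h abundances. Of these, 3853 kept their side of the threshold or stayed near the reported value, and 126 counts or abundances moved. Among estimates 182 lost a call, 53 gained one and 39 reversed sign with a call in either setting. The 3853 include 398 uncalled estimates that changed sign. The causes were not tested unless stated.

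LPS minus mock, 6 to 12 h: M/L 2 called (0 without the run factor, 4 with deposited normalised ratios, 0 with summed intensities, 1 with only the comparison's runs), the sum 1 (0, 2 and 0 for the first 3 of these, the 2 being Mcm3 and Dnmt1 and not Mki67), H/L 0 (1 with channels centred separately on their medians, 2 with deposited normalised ratios, 1 at a ratio count of at least 5). At 24 h: M/L 2 (0 without the factor, 5 with centred channels, 7 with deposited normalised ratios, 1 with intensities, 0 with only the comparison's runs), the sum 2 (0, 0 with deposited normalised ratios, 1 at a ratio count of 5, 0 and 0). Early sum 0 (1 with deposited normalised ratios). Late minus early: M/L 1 and the sum 1 (0 without the factor and with intensities, and 0 and 4 with deposited normalised ratios), H/L 0 (2). Sum against 0 h, without the factor, with deposited normalised ratios, with intensities and with only the comparison's runs: mock late 2 (0, 9, 0, 0), mock 24 h 7 (1, 1, 2, 0), LPS late 2 (0, 5, 0, 1), LPS 24 h 7 (1, 2, 1, 2). M/L in LPS 24 h 9 (3 without the factor). H/L at 24 h, without the factor, centred and deposited normalised: mock 2 (1, 4, 7; 1 with only the comparison's runs), LPS 2 (1, 4, 6; 1 with intensities). Slopes: mock 3 (7 with 24 h included), LPS minus mock 1 (0 with 24 h included and 0 from 3 to 12 h).

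Leaving out runs or a replicate gave 1 to 2 (late M/L), 0 to 1 (late H/L), 0 (late H/M), 1 to 3 (24 h M/L), 0 to 2 (24 h sum), 0 to 1 (late minus early M/L and sum), 0 to 3 and 5 to 7 (mock sum late and at 24 h), 0 to 2 and 3 to 5 (LPS), 1 to 2 (mock H/L), 3 to 4 and 4 (slopes in mock and LPS) and 0 (slope difference).

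Deposited normalised ratios centre each ratio on its own, which removes the proportion of M to H from the sum, and most reversals arose there. Against 0 h the sum became, in mock late, 0.89 (Mcm2), 0.96 (Mcm3), 1.53 (Mcm4), 1.85 (Mcm5), 0.83 (Mcm6), 0.77 (Mcm7), 1.18 (Pcna), 1.08 (Mki67) and 1.05 (Dnmt1), in mock 24 h 0.0575 (Mcm2), 0.0037 (Mcm7), 0.60 (Pcna) and 0.42 (Dnmt1), in LPS late 0.68 (Mcm2), 0.63 (Mcm3), 0.79 (Mcm7), 1.00 (Pcna), 0.55 (Mki67) and 0.33 (Dnmt1), and in LPS 24 h 0.0174 (Mcm3), 0.0845 (Mcm6), 0.22 (Mcm7), 0.71 (Pcna) and 0.42 (Dnmt1). H/L at 24 h became 1.00 (Mcm3, mock), 0.94 (Mcm2, LPS) and 1.30 (Mcm6, LPS), and the sum of Mcm3 0.38 early and -0.33 late, with late minus early at -0.70 (Mcm3) and -0.34 (Pcna). Centred channels gave H/L at 24 h of -1.14 (Mcm2) and -0.0564 (Dnmt1) in mock and -1.28 (Mcm7) and -0.0002 (Dnmt1) in LPS. Intensities gave sums of 0.0929 (Mcm7, mock late), 0.51 (Mcm2, mock 24 h) and 0.0267 (Mcm2, LPS 24 h). The slope difference of Dnmt1 became -0.0028 with 24 h included.

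The number of all proteins called moved by over 1.5 times in most comparisons. The lowest came mostly without the run factor, which leaves differences between runs in the median sum in the spread. The highest came mostly with deposited normalised ratios. In mock the factor went on log2 from -0.28 and 0.21 at 0 h to -0.68 and -0.35 at 24 h. Scaling thus also takes out a change with time, whose cause was not tested. As reported, lowest and highest, LPS minus mock gave for M/L 12, 2 and 22 early, 566, 16 and 955 late, and 1161, 22 and 1607 at 24 h, for H/L 16, 1 and 178, 400, 155 and 517, and 295, 30 and 433, for the sum 25, 4 and 294, 636, 108 and 779, and 1146, 106 and 1323, and for H/M 12, 3 and 20, 399, 168 and 444, and 251, 101 and 291. Late minus early gave 180, 0 and 345 (M/L), 204, 28 and 655 (H/L) and 321, 42 and 866 (sum). The 0 for M/L had 27 proteins, none a member, at an unadjusted limma p under 0.05, and that for the mock late sum below 110. Against 0 h the sum gave 332, 0 and 2913 (mock late), 977, 20 and 1497 (mock 24 h), 211, 34 and 2480 (LPS late) and 466, 61 and 1386 (LPS 24 h), M/L at 24 h 1948, 645 and 2146 (mock) and 1955, 232 and 2189 (LPS), and H/L 1528, 279 and 2556 (mock) and 1650, 563 and 2427 (LPS). Slopes gave 1239, 838 and 2285 (mock), 1446, 1140 and 2323 (LPS) and 464, 253 and 796 (the difference).

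Replicate numbers are not stated to pair runs, and deviations of same-numbered runs correlated over 0.1 in 202 (M/L), 167 (sum), 102 (H/L) and 105 (H/M) of 210 group pairs. With the replicate block 2 members were called in late M/L, 1 in the late sum and 3 in the 24 h sum, Mcm7 being the one gained. Depth limits Top2a, and H/L of helicase subunits near the 0 h background.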
